A study of Mus musculus with 9 samples.

Results

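The genes described here encode the coactivator Yap, its paralog Taz and the partners they meet on DNA. They are Yap1, Wwtr1 (which encodes Taz), Tead1, Tead2, Tead3, Tead4, Vgll1, Vgll3 and Vgll4, chosen by name among 47643 genes counted in each library, of which 47224 had a symbol. All 9 were found in the files. Total gene counts ran from 8116539 to 9635514 per library, and levels are given as CPM, the counts scaled by library size and TMM factor. RNA was sequenced from the 3′ ends of polyadenylated transcripts of murine primary pancreatic ductal adenocarcinoma (PDAC) cells, sorted by reporter color, with 6 KPF libraries of GFP+Yap+ cells and 3 KPYYF libraries of Tm+Yap- cells. KPF mice carried, among other alleles, Trp53 frt/+, Pdx-Flp and R26 FSF-CreER/Dual, and KPYYF mice carried the same alleles plus Yap flox/flox. Both genotypes thus share the recombinable Trp53 allele and the inducible Cre. The Pdx1 promoter confines Flp mostly to the pancreatic lineage. Tamoxifen in the diet, given to both genotypes once tumors could be felt, activates CreER, which replaces EGFP by tdTomato (Tm) and deletes the floxed Yap alleles. The GFP+ cells were sorted as unrecombined and the Tm+ cells as recombined, so genotype, Cre activity, reporter color and Yap status changed together and cannot be told apart. The study describes the Tm+Yap- cells as coming from nodules that relapsed after Yap loss. Relapse thus also goes with the group and cannot be told apart from these. KPF libraries 4504h and 4504s share a mouse number, and while the study's methods give an age range and the start of tamoxifen for the cohort, neither is given per library.

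Yap and Taz do not bind DNA themselves. They are carried to enhancers and promoters by the 4 TEAD proteins, which recognize the sequence GGAATG, and the Hippo kinases keep them out of the nucleus by phosphorylation. Vestigial-like (VGLL) proteins bind the same face of TEAD as Yap does. Vgll4 is known as a competitor that keeps Yap off TEAD, while Vgll1 and Vgll3 can act as alternative TEAD cofactors. In the pancreas, Yap is known to be required for the growth of early tumor lesions.

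The same GGAATG core stood in the promoters of most of these genes. RefSeq promoter windows (build GRCm38.p6), each from 250 bases before to 50 bases after a transcription start, were at hand for 7 of the 9 genes, all but Tead1 and Tead4. GGAATG, read on both strands and thus also as CATTCC, was found in 6 of the 7 genes, Yap1, Wwtr1, Vgll1, Vgll3, Vgll4 and Tead3, and not in the window of Tead2. Over the whole table, 14.7% of 32851 windows and 16.6% of 27025 genes held it. The letters of an AP-1 site, TGANTCA, were in none of the 10 windows of these genes and in 7.81% of all windows. The 250 bases before the start are shown for Yap1 and Vgll4, whose levels did not overlap between groups, for Vgll3, which had no counts in KPYYF libraries, and for Wwtr1, the paralog of Yap1 whose levels overlapped. Sequences run 5′ to 3′ on the strand of the gene, with the GGAATG or CATTCC letters in capitals. A match of 6 letters is a description of the sequence and not a site shown to be bound.
Yap1 (chr9:8004597-8004846, minus strand): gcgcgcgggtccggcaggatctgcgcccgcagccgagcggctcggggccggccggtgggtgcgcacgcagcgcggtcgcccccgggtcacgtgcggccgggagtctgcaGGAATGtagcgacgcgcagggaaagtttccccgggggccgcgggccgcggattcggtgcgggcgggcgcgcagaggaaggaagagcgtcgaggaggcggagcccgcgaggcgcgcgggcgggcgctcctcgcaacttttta
Vgll4 (chr6:114969204-114969453, minus strand): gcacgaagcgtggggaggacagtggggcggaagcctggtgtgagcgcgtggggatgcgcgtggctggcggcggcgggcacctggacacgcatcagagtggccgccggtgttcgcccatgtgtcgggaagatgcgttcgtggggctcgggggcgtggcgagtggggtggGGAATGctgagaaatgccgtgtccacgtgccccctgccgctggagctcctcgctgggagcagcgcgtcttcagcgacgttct
Vgll3 (chr16:65814939-65815188, plus strand): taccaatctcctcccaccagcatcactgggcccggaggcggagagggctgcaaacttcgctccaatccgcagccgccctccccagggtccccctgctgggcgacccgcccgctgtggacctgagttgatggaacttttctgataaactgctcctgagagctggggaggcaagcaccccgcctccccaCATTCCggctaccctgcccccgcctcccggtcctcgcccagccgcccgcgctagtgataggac
Wwtr1 (chr3:57575911-57576160, minus strand): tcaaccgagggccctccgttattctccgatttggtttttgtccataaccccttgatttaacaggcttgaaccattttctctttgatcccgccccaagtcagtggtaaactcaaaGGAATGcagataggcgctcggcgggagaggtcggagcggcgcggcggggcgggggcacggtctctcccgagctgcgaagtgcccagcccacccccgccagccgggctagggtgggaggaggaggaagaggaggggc
The capital letters began 141 bases before the start used for Yap1, 82 before that for Vgll4, 63 before that for Vgll3 and 136 before that for Wwtr1. The start used for Vgll4 lies inside the gene, whose span in GENCODE M21 reaches 114969994 at its 5′ end. In Yap1, Vgll4 and Wwtr1 they read GGAATG on the gene's own strand, and in Vgll3 they read CATTCC.

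Yap1 was the one gene of the family that fell in KPYYF libraries by the test across all genes. The gene (ENSMUSG00000053110) lies on chromosome 9 at 7931999 to 8004596, minus strand, in GRCm38. Its level was 139, 151, 101, 64.6, 99.1 and 41.8 CPM in KPF libraries 4269, 4435, 4504h, 4504s, 4515 and 4601. In KPYYF libraries 4449, 4891 and 4938 it was 0.712, 2.84 and 7.12 CPM, from 6, 26 and 65 counts. The KPYYF libraries all lay below the KPF libraries, and the lowest KPF level was 5.87 times the highest KPYYF level. The mean fell from 99.3 ± 41.8 CPM (SD, n = 6) to 3.56 ± 3.27 CPM (SD, n = 3), and the log2 fold change was -4.79 (95% confidence interval -6.36 to -3.22, SE 0.72). In the quasi-likelihood test of edgeR the Benjamini-Hochberg adjusted p over 14105 genes was 0.0159. This is a 27.7-fold difference, with an interval of 9.33 to 82.4-fold. The two-sided exact permutation test over the libraries gave p = 0.0119, the smallest that 84 splits allow.

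The remaining Yap1 signal was not even among the KPYYF libraries. Against the KPF mean it came to 0.718% in 4449, 2.86% in 4891 and 7.17% in 4938, so libraries that share a label differed widely. KPF libraries also spread over a 3.61-fold range. The exons between the loxP sites are not given in the sources used here, and reads from the 3′ end may lie outside them, so these counts measure the level of Yap1 RNA and not the deletion itself. Without KPYYF library 4891 the log2 fold change was -4.65 with an adjusted p of 0.0553, and with limma-voom it was -4.56 with an adjusted p of 0.0771.

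**Figure D1:**
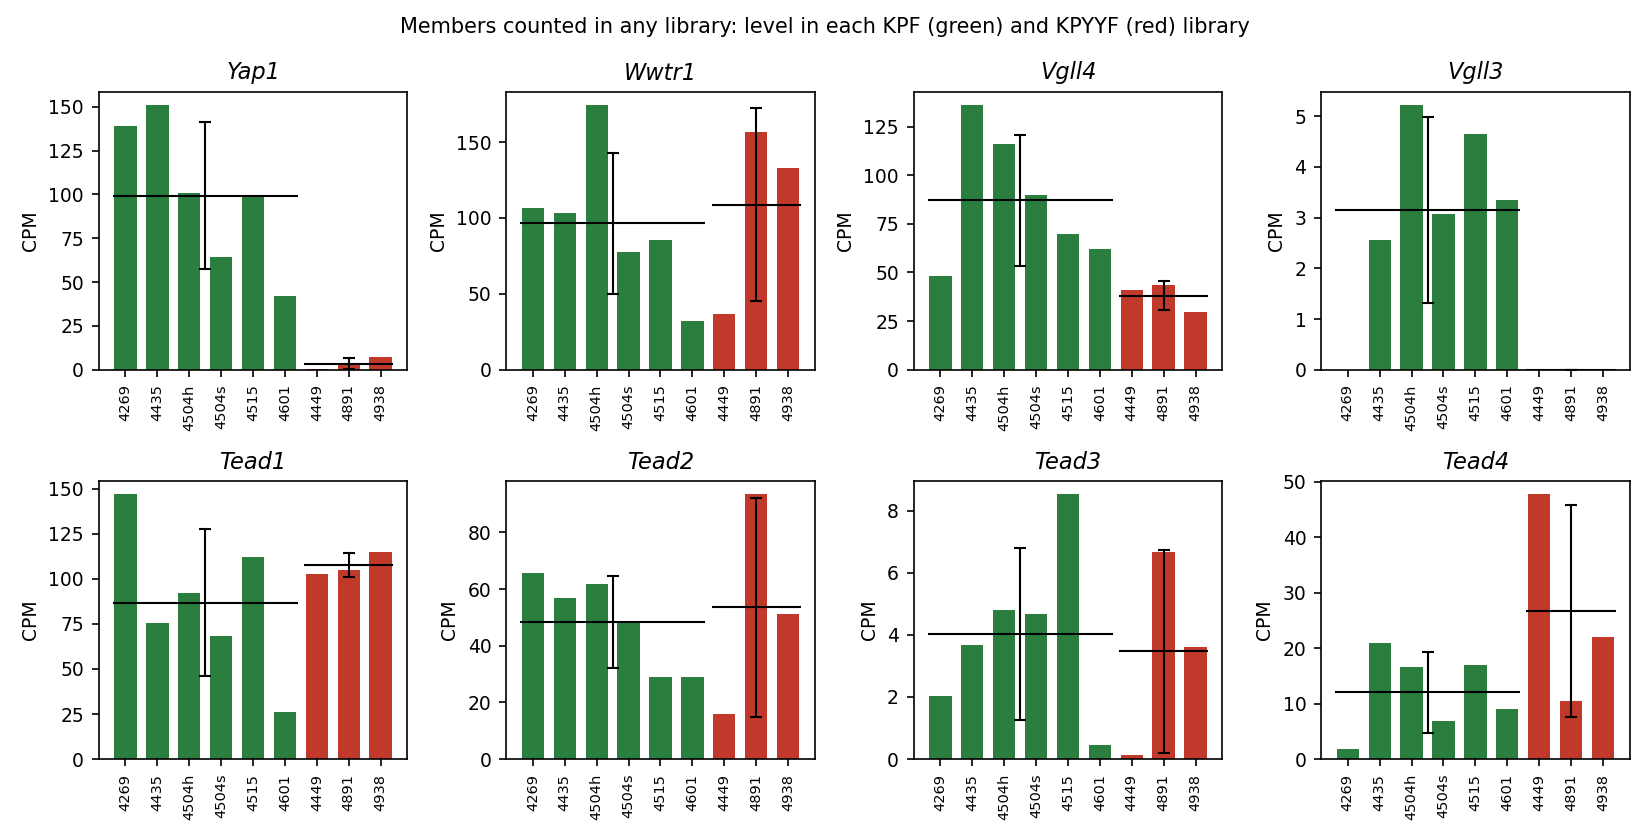
Level of each gene counted in any library, in CPM on a linear axis from 0, with 1 bar per library (6 KPF in green, 3 KPYYF in red), the group mean as a horizontal line and the SD as a vertical bar. Yap1 and Vgll4 bars do not overlap between groups, Vgll3 is at 0 in the 3 KPYYF libraries and in KPF library 4269, and the other genes overlap.

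Wwtr1 did not follow Yap1. Taz, its product, shares the TEAD-binding and transactivating regions of Yap and can stand in for part of its function. Wwtr1 (ENSMUSG00000027803, chromosome 3, 57455649 to 57575910, minus strand) was at 106, 103, 174, 77.3, 85.8 and 31.9 CPM in the KPF libraries, in the order given for Yap1. It was at 36.7, 156 and 133 CPM in the KPYYF libraries 4449, 4891 and 4938. KPYYF library 4449 was close to the lowest KPF library, 4601, and the other 2 KPYYF libraries were above 5 of the 6 KPF libraries. The means were 96.5 ± 46.6 CPM (SD, n = 6) and 109 ± 63.5 CPM (SD, n = 3), and the log2 fold change was 0.17 (SE 0.49, adjusted p = 0.913, edgeR). The 95% interval, -0.90 to 1.24 on the log2 scale, covers a fall of up to 1.87-fold and a rise of up to 2.37-fold, so changes within that range remain possible.

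The makeup of the Yap and Taz transcript pool differed between groups. The counts of Wwtr1 per count of Yap1 ran from 0.686 to 1.73 in KPF libraries and were 51.5, 55.0 and 18.7 in KPYYF libraries 4449, 4891 and 4938. As a share of Yap1 and Wwtr1 counts together, Wwtr1 made up 40.7% to 63.4% in KPF libraries. In KPYYF library 4449 the share was 98.1% (exact Clopper-Pearson 95% interval 95.9% to 99.3%), in 4891 98.2% (97.4% to 98.8%) and in 4938 94.9% (93.6% to 96.1%). The fall of Yap1 is part of this share by construction, so it is given as a description with no test. The summed level of Yap1 and Wwtr1 was 73.8 to 275 CPM in KPF and 37.4, 159 and 140 CPM in KPYYF libraries, and these ranges overlapped. About 1 read position per transcript is sampled by the 3′ end kit, so levels of different genes are compared in CPM without dividing by length.

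**Figure D2:**
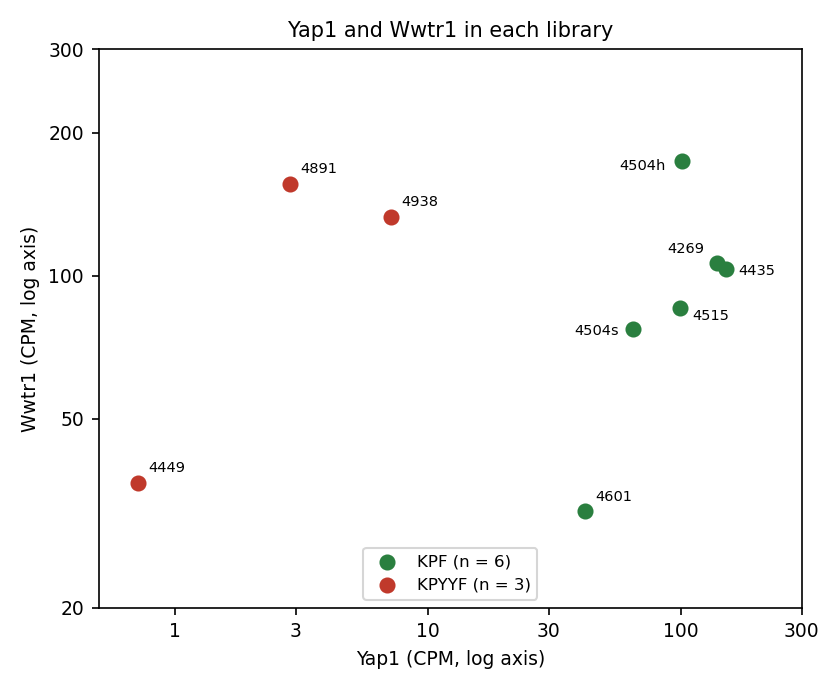
Wwtr1 against Yap1 in each library, both in CPM on log axes, with KPF libraries in green (n = 6), KPYYF libraries in red (n = 3) and the mouse number beside each point. The groups separate along the Yap1 axis only, since Wwtr1 runs from 31.9 to 174 CPM in KPF and from 36.7 to 156 CPM in KPYYF libraries.

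The 4 Tead genes, which encode the DNA-binding partners, gave no call in either direction. Tead1 (chromosome 7, 112679318 to 112906807) was the most abundant, with a lowest, median and highest level of 26.4, 83.6 and 147 CPM in KPF libraries and with 103, 105 and 115 CPM in KPYYF libraries. The 3 KPYYF libraries were nearly alike and lay inside the KPF range (log2 fold change 0.31, SE 0.41, 95% interval -0.57 to 1.19, adjusted p = 0.780, edgeR). Tead2 (chromosome 7, 45215753 to 45233644) was at 28.9, 52.8 and 65.7 CPM in KPF libraries (lowest, median, highest) and at 16.0, 93.4 and 51.1 CPM in KPYYF libraries. Its KPYYF libraries thus held both the lowest and the highest level of all 9, with a log2 fold change of 0.14 (95% interval -0.89 to 1.18, adjusted p = 0.928, edgeR). The last 13 bases of Tead2 overlap the end of Cd37, a leukocyte gene on the opposite strand, which had 7 to 266 counts in KPF and 1 or 2 in KPYYF libraries. The strand setting of the counting is not stated, and the part of Cd37 in the Tead2 counts was not tested.

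Tead3 and Tead4 were the rarer paralogs. Tead3 (chromosome 17, 28331671 to 28350817) was at 0.437, 4.18 and 8.52 CPM in KPF libraries (lowest, median, highest) and at 0.119, 6.67 and 3.62 CPM in KPYYF libraries. The lowest values rest on 3 counts in KPF library 4601 and 1 count in KPYYF library 4449, and the interval of the log2 fold change was wide, -2.89 to 2.46 (adjusted p = 0.960, edgeR). Its fitted change of -0.21 turned to 0.19 without KPF library 4515 and to 0.35 without KPYYF library 4449. Tead4 (chromosome 6, 128224288 to 128300823) was at 1.75, 12.8 and 20.9 CPM in KPF libraries (lowest, median, highest) and at 47.7, 10.4 and 22.0 CPM in KPYYF libraries. KPYYF libraries 4449 and 4938 were above all KPF libraries and 4891 was in the middle of them, and the log2 fold change was 1.15 (SE 0.68, 95% interval -0.31 to 2.61, adjusted p = 0.442, edgeR). It was 0.43 without KPYYF library 4449 and 1.54 without 4891. The exact permutation p values of Tead1, Tead2, Tead3 and Tead4 were 0.429, 0.786, 0.631 and 0.214.

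Summed over the 4 genes, Tead levels were 216, 157, 175, 129, 166 and 64.7 CPM in the KPF libraries and 167, 215 and 192 CPM in the KPYYF libraries 4449, 4891 and 4938. All 3 KPYYF sums lay inside the KPF range. Tead1 gave 40.8% to 67.9% of the Tead counts in KPF and 48.7% to 61.7% in KPYYF libraries. Tead2 gave 17.4% to 44.6% in KPF and 9.61% to 43.4% in KPYYF libraries. The Tead4 share ran from 0.809% in KPF library 4269 to 28.6% in KPYYF library 4449 (exact Clopper-Pearson 95% intervals 0.480% to 1.28% and 26.3% to 31.1%). These intervals cover counting error only. Set against the Tead sum, the counts of Yap1 and Wwtr1 together came to 1.10 to 1.62 per Tead count in KPF libraries and to 0.224, 0.739 and 0.731 in KPYYF libraries 4449, 4891 and 4938. The fall of the floxed gene Yap1 is part of this ratio by construction, so it is a description with no test and no result about the Tead genes.

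**Figure D3:**
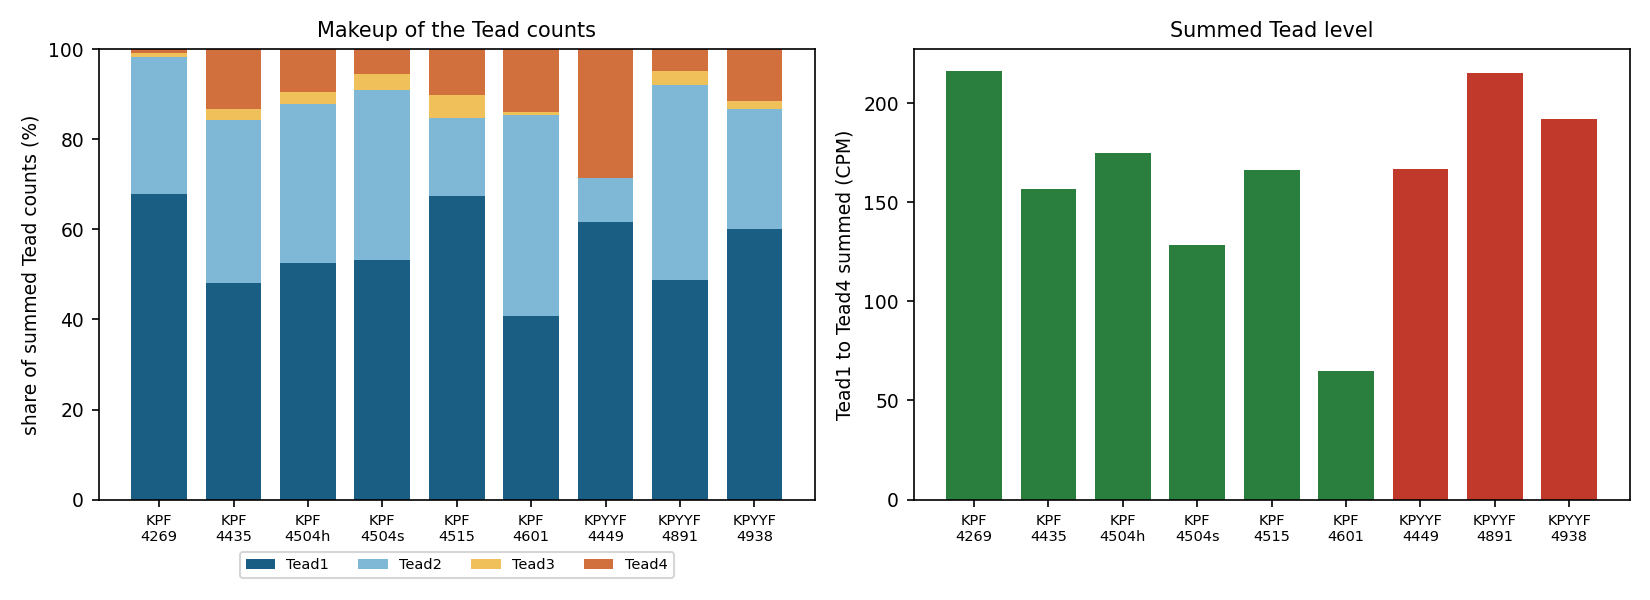
Left, share of each Tead gene in the summed Tead counts of each library (percent, stacked to 100), and right, the summed Tead level in CPM on a linear axis from 0, with KPF libraries in green and KPYYF libraries in red. Tead1 and Tead2 together make up most of each bar, Tead4 holds 28.6% and Tead2 9.61% in KPYYF library 4449, and KPF library 4601 has the lowest sum, 64.7 CPM.

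Among the VGLL genes, Vgll4 was lower in every KPYYF library than in any KPF library, though its adjusted p missed the threshold. Vgll4 (ENSMUSG00000030315, chromosome 6, 114860628 to 114969994, minus strand) was at 48.2, 136, 116, 89.8, 69.7 and 62.2 CPM in the KPF libraries 4269, 4435, 4504h, 4504s, 4515 and 4601. It was at 41.2, 43.4 and 29.5 CPM in the KPYYF libraries 4449, 4891 and 4938. The groups did not overlap, but KPF library 4269 and KPYYF library 4891 were close. The means were 87.0 ± 33.7 CPM (SD, n = 6) and 38.0 ± 7.49 CPM (SD, n = 3), a log2 difference of -1.19 (SE 0.38, 95% interval -2.01 to -0.38). The unadjusted p was 0.00755 and the adjusted p 0.141 in edgeR's quasi-likelihood test, and the exact permutation p was 0.0238. Of all 14105 tested genes, 16.1% had an unadjusted p under 0.05 in edgeR. The groups did not overlap in 9.10% of them, and 5.18% were lower without overlap. Over 19 alternative fits the log2 fold change stayed between -1.57 and -1.02, with an unadjusted p under 0.05 in all 19 and an adjusted p from 0.0434 (DESeq2) to 0.331. The log2 fold change without libraries 4601, 4504s and 4449, the highest in immune or acinar markers, was -1.31. Per Tead count, Vgll4 counts ran from 0.223 to 0.962 in KPF libraries and were 0.247, 0.202 and 0.154 in KPYYF libraries, so on this scale KPF library 4269 lay among the KPYYF libraries.

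Vgll3 was counted in 5 of 6 KPF libraries and in no KPYYF library. Vgll3 (ENSMUSG00000091243, chromosome 16, 65815257 to 65866368, plus strand) had 25, 51, 27, 42 and 23 counts in KPF libraries 4435, 4504h, 4504s, 4515 and 4601, or 2.56, 5.21, 3.08, 4.65 and 3.35 CPM. It had 0 counts in KPF library 4269 and in the 3 KPYYF libraries, and a count of 0 allows up to 3 counts, or 0.328 to 0.356 CPM in the KPYYF libraries. The groups overlapped through library 4269, which had no Vgll3 like the KPYYF cells. The KPF mean of 3.14 ± 1.83 CPM (SD, n = 6) put the KPYYF level at least 9.30-fold lower, with the floor of 3 counts taken per library. Vgll3 passed the minimum of 100 counts over all libraries through the KPF libraries alone, with 168 counts, so its levels are given as a description and no p value is read from them. Markers of fibroblasts, which also express Vgll3, had a summed level of 440 CPM in library 4269, 568 to 5633 CPM in the other KPF libraries and 1150 to 3131 CPM in the 3 KPYYF libraries. Of 11 fibroblast markers, 2 had higher and 2 lower levels at an unadjusted p under 0.05, and no adjusted p of the 11 was under 0.05 in edgeR. The higher ones were Pdgfra and Dpt, with log2 fold changes of 2.90 and 2.04, and the lower ones Acta2 and Rgs5, with -2.65 and -2.52, and the median of the list was 0.24. The reporter marks cells of the Pdx1 lineage, and the libraries were sorted by its color. The part of fibroblasts in the Vgll3 levels was not tested.

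Vgll1 had no counts in any of the 9 libraries, which allows at most 0.292 to 0.437 CPM at these depths. Vgll2, a muscle-associated relative outside the list, was nearly silent too, with 21 counts in KPF library 4504s, 2 in 4515, 1 in KPYYF library 4449, 3 in 4938 and none elsewhere.

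**Figure D4:**
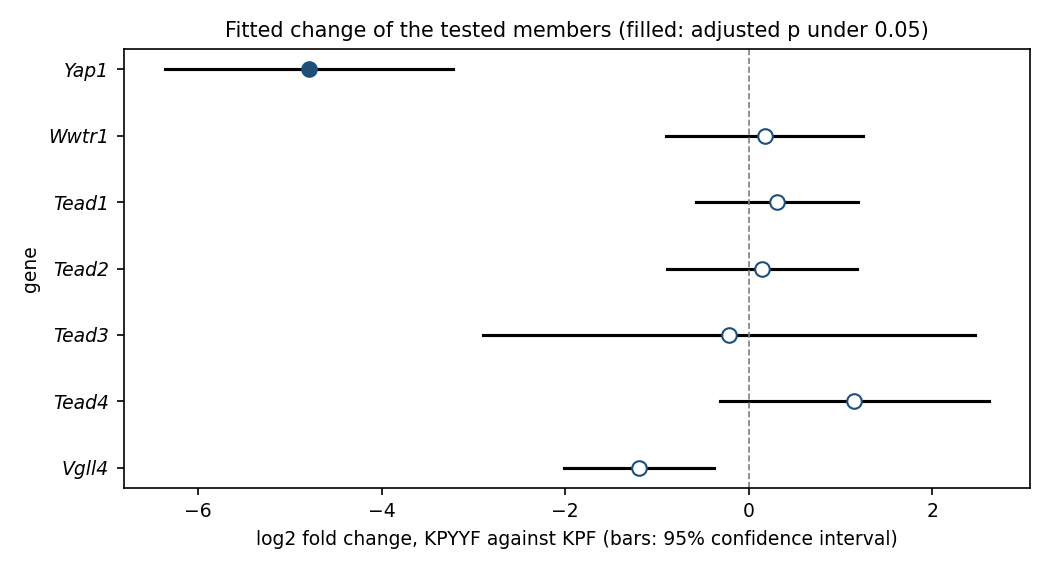
Log2 fold change of KPYYF against KPF for the 7 tested genes with counts in both groups, with 95% confidence intervals from edgeR's quasi-likelihood fit, and a filled point where the adjusted p is under 0.05. Yap1 stands apart at -4.79, the interval of Vgll4 (-2.01 to -0.38) leaves out 0, and the intervals of Wwtr1 and the 4 Tead genes include 0.

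Counted together, 8 of the 9 genes were tested, 1 fell and none rose at an adjusted p under 0.05, where 1.10% of all 14105 tested genes passed in either direction and 0.794% as lower. At an unadjusted p under 0.05, Yap1 and Vgll4 were lower and no member was higher, with Vgll3 left out of this count for the reason given above, and of all tested genes 1416 were lower and 860 higher, or 16.1% in either direction. In 2 of the 8, Yap1 and Vgll4, the KPYYF libraries lay wholly below the KPF libraries, against 5.18% of all tested genes, and 9.10% of all tested genes had no overlap in either direction. Yap1 is the floxed gene, so its part in these counts follows from the design and is no result about the family. Without Yap1, no gene is left in the adjusted count, and only Vgll4 in the others. The median log2 fold change of the 8, Vgll3 included, was -0.04, beside -0.07 for all tested genes.

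The order of levels in KPF libraries was Yap1 (99.3 CPM), Wwtr1 (96.5), Vgll4 (87.0), Tead1 (86.8), Tead2 (48.4), Tead4 (12.0), Tead3 (4.03) and Vgll3 (3.14), as means. The first 4 were not separable, since each exceeded the next in 3 or 4 of the 6 libraries. Tead1 exceeded Tead2 in 5 of 6 libraries and Tead2 exceeded Tead4 in all 6. In KPYYF libraries the order was Wwtr1 (109 CPM), Tead1 (108), Tead2 (53.5), Vgll4 (38.0), Tead4 (26.7), Yap1 (3.56) and Tead3 (3.47). Yap1 thus went from the first place to the level of Tead3, which it exceeded in 2 of 3 libraries, while Tead1 exceeded Tead2, and Tead4 exceeded Yap1, in all 3.

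Some libraries stood apart in several of these genes. KPF library 4601 was the lowest of the KPF libraries in Yap1, Wwtr1, Tead1 and Tead3. It was also the lowest in Tead2, by a narrow margin (28.86 CPM, against 28.89 CPM in 4515). Its summed level of 10 immune markers was 7920 CPM, against 400 to 2478 CPM in the other 8 libraries. KPF library 4504s (14404 CPM) and KPYYF library 4449 (3483 CPM) had the highest sums of 7 acinar markers, against 45.3 to 738 CPM elsewhere. Library 4449 was also the lowest of all 9 in Yap1, Tead2 and Tead3 and the highest in Tead4. Without 4601, 4504s and 4449 the log2 fold change of Yap1 was -4.58, and that of Tead3 turned to 0.13. Xist was uneven between groups, with 79, 71 and 159 counts in KPF libraries 4269, 4515 and 4601. It had 5878 to 10933 counts in the other KPF libraries and 3452 to 16108 in KPYYF libraries. The study used mice of both sexes, and sex is not given per library. In the libraries high in Xist, the log2 fold change was -4.85 for Yap1 and -1.57 for Vgll4. Epithelial markers moved with the groups, since the sum of 8 of them was 3539 to 11245 CPM in KPF and 629 to 2138 CPM in KPYYF libraries, and all 8 had negative log2 fold changes, 2 of them (Cdh1 and Krt18) with an adjusted p under 0.05. Endothelial markers summed to 10.8 to 55.9 CPM in KPF and 12.5 to 14.8 CPM in KPYYF libraries. The part of these cells or states in the levels of Vgll4 and Vgll3 was not tested, and fewer cells of a type and less RNA per cell cannot be told apart in such libraries.

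The Hippo cascade, which acts upstream of Yap and Taz, had 1 gene higher and 1 lower at an adjusted p under 0.05 among 22 tested of 23. Amot, an angiomotin that holds Yap at junctions and the actin skeleton, rose from 36.5 ± 14.3 CPM (SD, n = 6) to 184 ± 118 CPM (SD, n = 3), a log2 difference of 2.34 (SE 0.43, adjusted p = 0.0249). Taok3, a TAO kinase that can activate the Hippo kinases, fell from 159 ± 39.6 CPM (SD, n = 6) to 55.6 ± 3.39 CPM (SD, n = 3), a log2 difference of -1.51 (SE 0.31, adjusted p = 0.0357). The groups did not overlap in either gene. Among genes of at least 10 CPM, the ends of the list were also set by Stk3 (Mst2, a Hippo kinase), with 0.73 (adjusted p = 0.483), and by the scaffolds Ajuba, with -2.80 (adjusted p = 0.119), and Wwc1 (Kibra), with -1.76 (adjusted p = 0.0933). The median of the list was -0.29 on the log2 scale, and 5 genes were lower and 1 higher at an unadjusted p under 0.05. Among all 14105 tested genes, 1416 were lower and 860 higher at this unadjusted p, and 1.10% had an adjusted p under 0.05.

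Most targets that Yap and TEAD share had negative log2 fold changes. Of 22 tested targets, 18 had one, 9 were lower and none higher at an unadjusted p under 0.05, and the median was -0.93, beside -0.07 for all tested genes. Of all 14105 tested genes, 7518 had a negative log2 fold change, and 1416 were lower and 860 higher at an unadjusted p under 0.05. Only Ggh, gamma-glutamyl hydrolase, had an adjusted p under 0.05. It fell from 31.4 ± 7.22 CPM (SD, n = 6) to 6.62 ± 1.51 CPM (SD, n = 3), a log2 difference of -2.24 (SE 0.44, adjusted p = 0.0351), with no overlap between groups. Igfbp3, which binds insulin-like growth factors, had the most negative change among targets of at least 10 CPM, at -3.03 (adjusted p = 0.0914), followed by the kinase Nuak2 at -2.65 (adjusted p = 0.167). At the other end, with the same limit on CPM, were the receptor kinase Axl at 0.55 (adjusted p = 0.424) and the guanine nucleotide exchange factor gene Arhgef17 at 0.43 (adjusted p = 0.637). The target list is known from other systems and was written with earlier results of these data known, so its direction is a description. Amotl2, Lats2 and Ptpn14 stand in both this list and the Hippo list.

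The AP-1 genes, whose products share many enhancers with TEAD, and the general coregulators had no gene with an adjusted p under 0.05 in edgeR's quasi-likelihood test. Of 7 AP-1 genes, 1 was lower at an unadjusted p under 0.05, Jund with a log2 fold change of -1.34 (adjusted p = 0.0674), and the alternative fits with DESeq2 and with no filter on low counts each called 1 AP-1 gene. Junb was at -0.54, Fosl2 at -0.20 and Fosl1 at 0.43. Of 10 tested coregulators, 2 were higher at an unadjusted p under 0.05, among them the Mediator subunit Med1 at 0.63 (adjusted p = 0.285), and DESeq2 called none. Ncoa2 was at -0.65 and the remodeler Smarca4 at -0.28. The medians of the lists were -0.43 and 0.04. Beside these lists, 1416 of all 14105 tested genes were lower and 860 higher at an unadjusted p under 0.05.

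**Figure D5:**
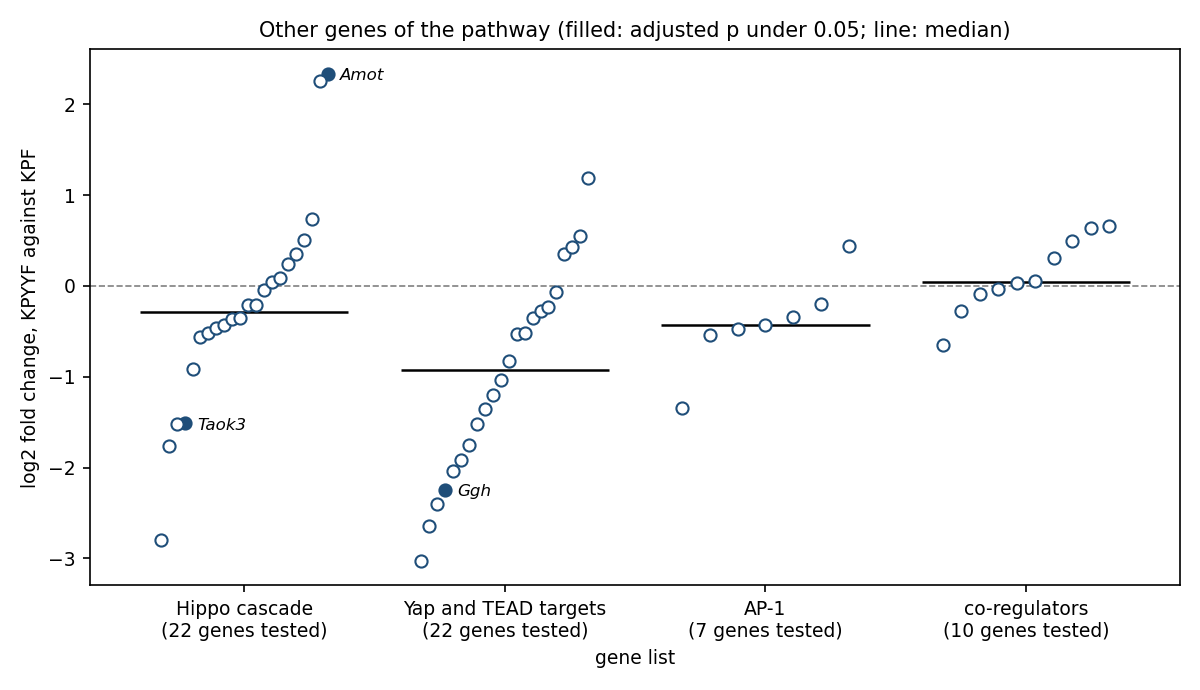
Log2 fold change of KPYYF against KPF for each tested gene of 4 lists, ordered by value within a list, with filled points for an adjusted p under 0.05 in edgeR's quasi-likelihood test and a line at each median. The targets sit lowest, with a median of -0.93, the coregulators lie around 0.04, and Amot, Taok3 and Ggh are the 3 filled points.

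These 3 calls depended on the libraries included. In 19 alternative fits, Amot kept an adjusted p under 0.05 in 12, Taok3 in 8 and Ggh in 8, and each kept its direction and an unadjusted p under 0.05 in all 19. No gene of the 3 passed the threshold without KPF library 4435, 4504s or 4515 or without KPYYF library 4891, where the adjusted p of Amot was 0.0585, 0.0526, 0.0552 and 0.119. Without KPYYF library 4938, only Amot did (adjusted p = 0.0411). With the libraries 4504h and 4504s of the shared mouse number summed, Ggh no longer passed (adjusted p = 0.0556), and Amot and Taok3 did.

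Of 9188 genes with a mean of at least 10 CPM, those whose log2 CPM ran most like Yap1 over the 9 libraries were Gne, Inpp4b, Tcaf1, Efna1 and Nedd9, with Pearson r of 0.972, 0.970, 0.967, 0.965 and 0.962. The difference between groups enters these values. Efna1, an ephrin ligand, fell from 52.4 to 2.95 CPM (adjusted p = 0.0357, edgeR), and the adjusted p of the other 4 was 0.0596 to 0.127. The genes most like Vgll4 were Gadd45g, Procr, Afap1, Npnt and Vegfa, with r of 0.950, 0.937, 0.922, 0.921 and 0.915. The adjusted p of these 5 was 0.0933 to 0.273.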

How the data were processed

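As deposited by the authors, the 9 files (1 per library) hold raw read counts for Ensembl genes, not normalized. Per the labels, libraries were made with the Lexogen QuantSeq 3′ Fwd kit. The submitters' processing notes name STAR, HTSeq and mm10, without versions, and the study's methods describe BeadChip hybridization, a filter at a sum of 100 reads and DESeq2. Identifiers were matched to symbols in GENCODE M21. The 14105 genes whose counts summed to at least 100 entered the test of edgeR 4.0.16 (quasi-likelihood, robust, TMM factors 0.833 to 1.08, no covariates) in R 4.3.3, and Benjamini-Hochberg adjustment was over all of them with a threshold of 0.05. P values are two-sided and measure the spread between these libraries, with 4504h and 4504s counted separately although they share a mouse number. With 4504h and 4504s summed, the edgeR adjusted p was 0.0208 for Yap1 and 0.192 for Vgll4. The exact permutation tests were not repeated on summed libraries. Log2 CPM used a prior count of 2, and exact permutation tests used all 84 splits. Floors are 3 counts and, as shares do, cover counting error only, since reads carry no molecular identifiers. No 2 libraries held identical counts. Alternatives were DESeq2 1.42.0, limma 3.58.1 (voom with quality weights), RLE and upper quartile scaling, no filter, filterByExpr, libraries 4504h and 4504s summed, each library left out, the libraries with at least 1000 Xist counts, a prior count of 0.5 and, added after seeing the data, 2 settings without libraries high in immune or acinar markers. Tools were tested on simulated data.

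The members and the lists were chosen with earlier results of these data known. Named beside the members and Vgll2 were list genes with an adjusted p under 0.05, the 2 largest and 2 smallest log2 fold changes per list among genes of at least 10 CPM, and the 5 genes most correlated with Yap1 and with Vgll4. Islet markers (5 genes) summed to 0.511 to 49.9 CPM in KPF and 2.63 to 11.2 CPM in KPYYF libraries, and 7 mesenchymal state genes to 1294 to 4100 and 1706 to 3753 CPM. Figures were drawn with matplotlib 3.10.9. Values or descriptions of some items that these rules would name are not reported here.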

Additional observations from a re-analysis of the deposited data

Results flagged for a closer look

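Vgll3 in KPF library 4269 lay far from the other 5 KPF libraries. It had 0 counts there and at least 23 counts in each of the others, and the gap to the nearest library took 0.791 of the whole range of log2 CPM in the group. Among 8 genes examined in this way it was the only such value, and chance gives one in about 1 of 20 groups. Leaving out library 4269, the KPYYF level of Vgll3 was at least 11.2-fold below the KPF mean.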

How the results depend on the processing

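Vgll3 is left out of these counts, since it entered the test through its KPF counts alone. In the reported fit, Yap1 was the only family gene with an adjusted p under 0.05. The DESeq2 Wald test called Yap1 and Vgll4, and limma-voom called none. With one library left out, Yap1 alone was called, except without KPYYF library 4891, where none was. At an unadjusted p under 0.05, limma-voom had Yap1 and Vgll4 lower, and Yap1 passed in all 19 alternatives, with log2 fold changes from -5.78 to -4.31. The number of pathway genes was 3, and 11 with DESeq2, 5 with no filter on low counts, 1 with limma-voom, 2 with libraries 4504h and 4504s summed, 0 in the libraries high in Xist, 0 in both settings without libraries high in immune or acinar markers, and 0 to 3 with one library left out. Directions turned where no call was made. Tead3 was at 0.19 without KPF library 4515, 0.35 without KPYYF library 4449 (-1.10 to 0.35 with one library left out) and 0.13 without 4601, 4504s and 4449. Wwtr1 was at -0.18 without KPYYF library 4891 (-0.18 to 0.58 with one library left out), -0.10 in the libraries high in Xist and -0.079 without KPF libraries 4601 and 4504s. Tead2 was at -0.53 without KPYYF library 4891 (-0.53 to 0.58 with one library left out) and -0.035 in the libraries high in Xist. The causes were not tested. Tead1, Tead4 and Vgll4 kept their direction in all 19. The median of the Hippo list moved from -0.29 to -0.08 with limma-voom, -0.17 without KPYYF library 4449 and -0.15 in the libraries high in Xist. The median of all genes was -0.31 with no filter, against -0.07. No paired analysis was possible because the groups share no replicate numbers. With 3 KPYYF libraries and a common biological coefficient of variation of 0.825, many intervals were wide, and changes within the intervals given remain possible.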
